A study of Mus musculus with 20 samples.

Results

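Cerebellar transcripts of 5 AAV-shSCR-treated SCA7 mice were compared with those of 4 untreated wild-type (WT) mice, all with titles giving 25w, so the comparison holds 9 of the 20 libraries of the series and was chosen by these labels alone. SCA7 mice carry an expanded CAG repeat in 1 allele of Atxn7 (140Q/5Q knock-in, so that every cell that expresses the gene makes the long form), on the C57BL/6J strain. They had received, at about 5 weeks of age and through the retro-orbital vein, an AAV of serotype PHP.eB that expresses eGFP from a CMV promoter and a scrambled short hairpin RNA (shSCR) from an H1 promoter. In the study, eGFP from this type of vector was seen in most PCs and in some cells of the molecular layer and the cerebellar nuclei, and rarely in granule cells. The WT mice had received no vector, and the mice of both groups were males. The effect of the SCA7 genotype and that of the vector with its hairpin therefore cannot be told apart in this comparison, which asks which cerebellar genes, pathways and cell types differ in the diseased cerebellum. Each library is the poly(A) RNA of the whole cerebellum of 1 mouse.

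Spinocerebellar ataxia type 7 is caused by a polyglutamine expansion in ATXN7, a subunit of the SAGA complex, which acetylates and deubiquitinates histones at promoters. Purkinje cells (PCs) are the only neurons that send output from the cerebellar cortex: they integrate parallel fibre input from granule cells and climbing fibre input on a large dendrite, where Gq, phospholipase C and the IP3 receptor act in turn to release calcium. Bergmann glia ensheath this dendrite, interneurons of the molecular layer inhibit it, and oligodendrocytes myelinate the axons of the white matter.

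Of 55401 genes in the count table, 21897 were protein-coding, and 14862 of these had enough reads to be tested. Library totals ranged from 33758498 to 40621179 reads in the SCA7 group and from 39036803 to 54570503 in the WT group. Levels are given as CPM, the reads of a gene relative to a library total scaled for composition. A gene was called where edgeR's quasi-likelihood test gave a fold change above 1.3 together with a Benjamini-Hochberg adjusted p below 0.05. A log2 fold change is SCA7 minus WT and carries its SE, a bare value in brackets after a gene is its log2 fold change, and a level with ± is the mean and SD over 4 WT or 5 SCA7 mice. WT replicate 1 stood apart from the other libraries: 115 genes were over 2 times higher in it than in every other library at 1 CPM or more, against 0 to 3 genes in each of the other 8. Markers of neurons of the forebrain, thalamus and midbrain, a list of 31 genes written after these values had been seen, summed to 965 CPM there over the 22 members tested, and to 421 to 596 CPM in the other 8 libraries, and 15 of the 22 were highest in it. SCA7 replicate 1 was the highest of the 5 in many genes of antigen presentation. Choroid plexus markers varied widely in both groups, with a sum of 1115 to 4484 CPM in SCA7 and 1739 to 5946 CPM in WT mice. Where a named gene lost its call without the first replicate of either group, this is said beside it, and the part of these libraries and markers in the other results was not tested. Atxn7 itself did not separate the groups, with 46.0, 53.8, 48.5, 50.9 and 50.4 CPM in SCA7 mice and 46.0, 50.6, 49.7 and 49.1 CPM in WT mice (log2 fold change 0.03 ± 0.05, adjusted p = 0.72; exact two-sided permutation p = 0.548 over 126 arrangements, the smallest possible p being 0.0159). The counts sum the reads of both alleles.

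In SCA7 mice, 597 of the 14862 genes tested were called, which is 4.02%, and 396 of them were lower (2.66%) and 201 higher (1.35%) than in WT mice. The changes were mostly moderate: the median log2 fold change was -0.55 over the lower and 0.58 over the higher genes, and only 90 called genes differed by more than 2-fold, 54 of them lower and 36 higher. Over all genes tested, the groups did not overlap in 16.8% (SCA7 higher in 7.54%, lower in 9.22%), and among the 597 called genes this held for 511. Separate groups are thus usual for a called gene and are not particular to those named below. The plot of all genes shows called genes at every level of expression, from below 1 CPM to Itpr1 at 3382 ± 142 CPM in SCA7 mice. Without WT replicate 1, 538 genes were called, of which 467 were among the 597, and without SCA7 replicate 1, 552 were called, of which 507 were. Where libraries were scaled by their totals alone, 323 genes were lower and 306 higher, so the balance of the directions depends on the scaling, with the median of all genes moved by 0.05 on the log2 scale. The p-values measure the spread between mice within groups. SCA7 mice given another hairpin vector (AAV-shA4) were in the same fit and shared in the estimate of this spread. With the 9 libraries of the 2 compared groups alone, 631 genes were called.

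**Figure D1:**
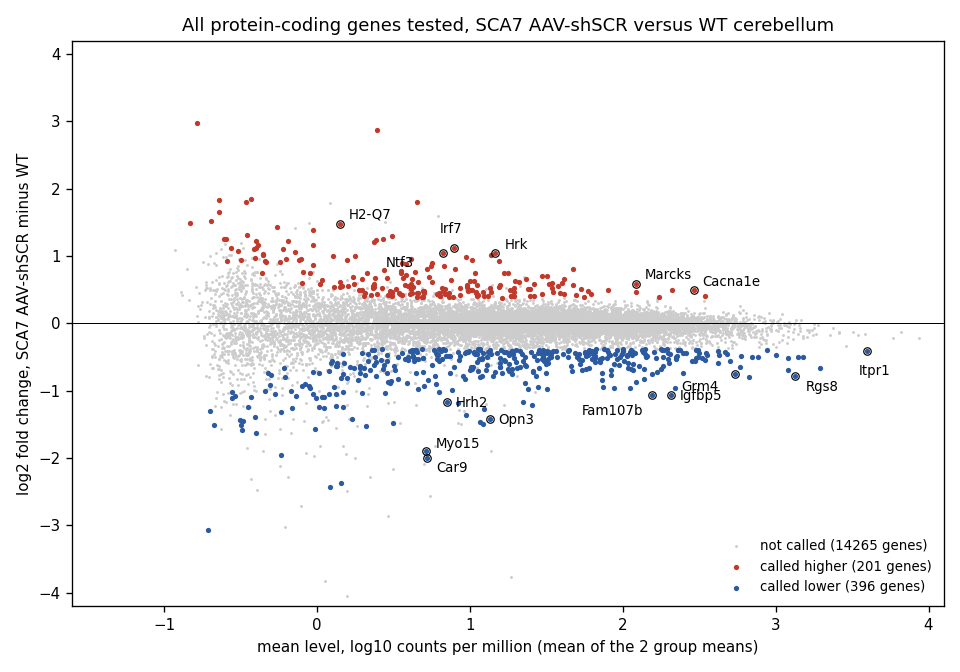
Each point is 1 of the 14862 protein-coding genes tested, with its mean level (log10 CPM, mean of both group means) on the x axis and its log2 fold change, SCA7 AAV-shSCR minus WT, on the y axis. The 396 genes called lower are blue and the 201 called higher red, and the named genes Itpr1, at a log2 fold change of -0.42, and Rgs8, at -0.78, lie on the lower side at high mean levels.

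Car9 and Myo15 were among the strongest losses of genes with a clear level in WT mice. Car9, a carbonic anhydrase of the cell surface, was at 2.12, 1.86, 2.18, 2.46 and 1.78 CPM in the 5 SCA7 mice and 6.92, 9.56, 8.94 and 7.92 CPM in the 4 WT mice (log2 fold change -2.002 ± 0.13, adjusted p = 2.7e-08). Its highest SCA7 value lay far below its lowest WT value. Myo15, an unconventional myosin known from the stereocilia of hair cells, was at 1.67, 2.14, 2.45, 1.87 and 2.74 CPM against 6.69, 8.09, 9.58 and 8.18 CPM (log2 fold change -1.90 ± 0.14, adjusted p = 6.8e-08). Opn3, an opsin expressed in the brain, was at 8.10, 7.39, 6.96, 7.16 and 7.02 CPM against 18.5, 19.8, 22.4 and 17.8 CPM (log2 fold change -1.42 ± 0.10, adjusted p = 5.7e-08). These 3 genes fell in every SCA7 mouse below every WT mouse, as did the mucin gene Muc3a (-1.36) and Mdfi, which encodes an inhibitor of myogenic transcription factors (-1.27). Genes named for the largest changes were picked among those with separate groups, so this separation was part of their choice. Chrnb4, a subunit of nicotinic acetylcholine receptors, was at 0.819 to 1.11 CPM in SCA7 and 2.08 to 3.18 CPM in WT mice (log2 fold change -1.42 ± 0.33, adjusted p = 0.0068). Ptk2b, a tyrosine kinase activated by calcium, was at 7.06, 6.57, 6.05, 6.29 and 6.12 CPM against 27.0, 15.5, 14.8 and 15.04 CPM, with its highest value in WT replicate 1, and remained lower without that library (log2 fold change -1.23, adjusted p = 0.0062). Cckbr, a receptor of cholecystokinin, and the calcium-binding Necab2 were also among the largest differences (-1.52 and -1.48), but their calls were lost without WT replicate 1 (log2 fold change -0.85, adjusted p = 0.14 and -1.11, adjusted p = 0.079).

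The genes with the smallest adjusted p had little spread between mice, which a choice by p favours. Ppp1r16b, a regulatory subunit of protein phosphatase 1, was at 193, 186, 191, 176 and 186 CPM in SCA7 and 315, 320.5, 297 and 308 CPM in WT mice (log2 fold change -0.74 ± 0.03, adjusted p = 8.5e-10). Sbk1, a serine/threonine kinase, was at 511, 488, 497, 448 and 499 CPM against 820.1, 878, 815 and 876 CPM (log2 fold change -0.79 ± 0.04, adjusted p = 3.2e-09). Igfbp5, which binds insulin-like growth factors, fell 2.09-fold, from 278, 265, 296 and 281 CPM in WT to 139.96, 137, 136, 118 and 139 CPM in SCA7 mice (log2 fold change -1.06 ± 0.06, adjusted p = 3.2e-09). The groups did not overlap in any of these 3 genes, which such a choice also favours. Ipo5, an importin that carries proteins into the nucleus, showed a smaller and equally even decrease, from 167.5 ± 3.70 to 119 ± 2.79 CPM (log2 fold change -0.49 ± 0.03, adjusted p = 6.5e-09). Marcks, an actin-binding substrate of protein kinase C, was the only one of the 8 genes with the smallest adjusted p that rose, from 97.8 ± 1.46 CPM in WT to 147 ± 5.73 CPM in SCA7 mice (log2 fold change 0.59 ± 0.03, adjusted p = 6.4e-09).

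Hrk, Ntf3 and Kcnb2 were among the genes with the largest increases. Hrk, a BH3-only protein that promotes apoptosis of neurons, was at 19.3, 18.1, 18.5, 23.1 and 18.9 CPM in SCA7 and 8.56, 8.49, 9.93 and 10.9 CPM in WT mice (log2 fold change 1.05 ± 0.09, adjusted p = 4.9e-07). Ntf3, which encodes neurotrophin-3, was at 7.86, 8.88, 8.97, 9.77 and 9.34 CPM against 3.89, 4.79, 3.72 and 5.04 CPM (log2 fold change 1.04 ± 0.11, adjusted p = 7.2e-06). Kcnb2, the voltage-gated potassium channel Kv2.2, was at 17.8, 22.3, 12.3, 21.8 and 18.6 CPM against 10.96, 10.5, 7.28 and 7.71 CPM (log2 fold change 1.02 ± 0.15, adjusted p = 2.3e-04). The increases of these 3 genes were 2.07-fold, 2.06-fold and 2.03-fold, and SCA7 replicate 3 was the lowest of its group in Kcnb2. Il3ra, a cytokine receptor chain, rose to 3.30 ± 0.545 CPM from 1.42 ± 0.255 CPM (log2 fold change 1.21 ± 0.16, adjusted p = 4.8e-05), and Il12rb1, a chain of the receptors of interleukins 12 and 23, to 1.38 ± 0.688 CPM from 0.515 ± 0.169 CPM (log2 fold change 1.39 ± 0.34, adjusted p = 0.011). Ada, the enzyme adenosine deaminase, rose from 0.535 ± 0.169 to 1.03 ± 0.180 CPM (log2 fold change 0.96 ± 0.21, adjusted p = 0.0056).

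**Figure D2:**
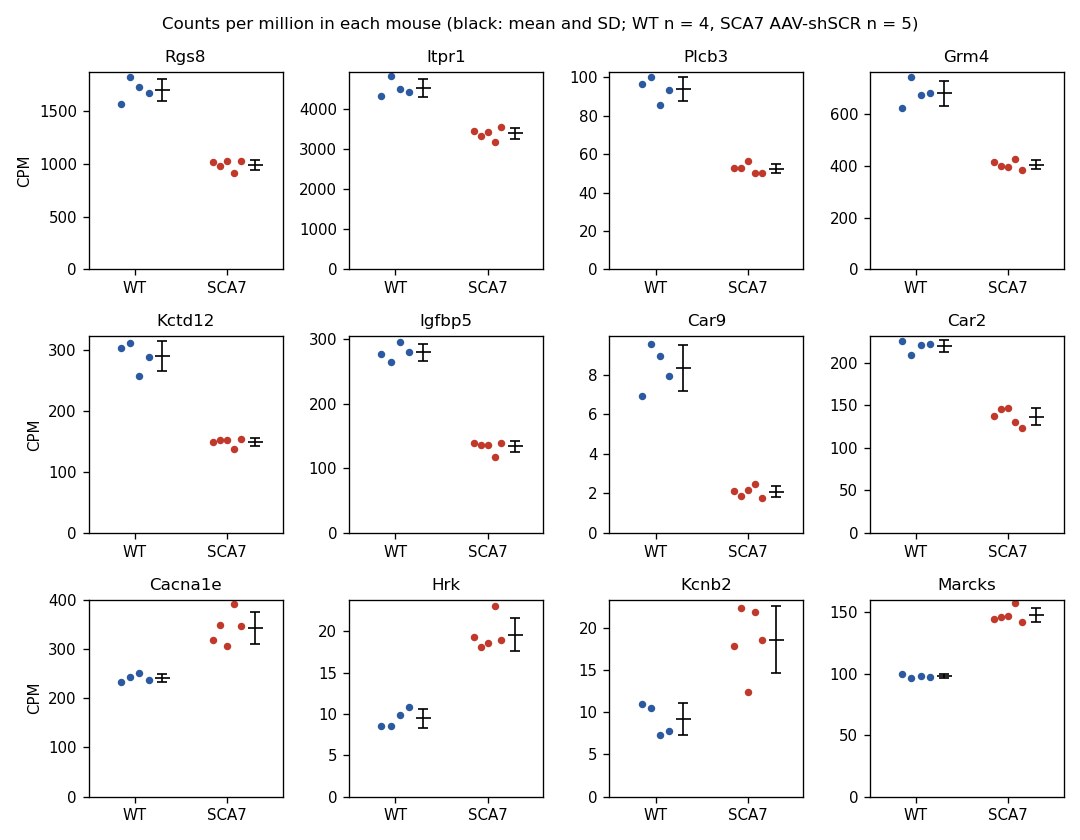
CPM of 12 genes in each mouse, with WT mice in blue and AAV-shSCR-treated SCA7 mice in red, and the black bar giving the mean and SD of 4 and 5 mice. The first 8 genes lie lower and the last 4 (Cacna1e, Hrk, Kcnb2, Marcks) higher in every SCA7 mouse than in every WT mouse.

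PC markers were the cell type list with the most called members. This list and the other gene lists were chosen with earlier results of these data known, so their shares are descriptive and were not tested. Of 50 PC marker genes, all of which were tested, 30 (60.0%) fell and none rose, against 4.02% of all genes tested. Their median log2 fold change was -0.41, against 0.00 over all genes tested. The summed level of the list was 13019 to 14377 CPM in SCA7 and 18319 to 20374 CPM in WT mice. The strongest decreases were in Fam107b, at 101, 105, 99.9, 96.5 and 103 CPM against 199.6, 225, 210.4 and 206 CPM (log2 fold change -1.06 ± 0.06, adjusted p = 4.3e-09), and Grid2ip, the postsynaptic scaffold delphilin, at 59.7, 56.7, 60.7, 56.1 and 63.3 CPM against 107, 124, 111 and 117 CPM (log2 fold change -0.95 ± 0.05, adjusted p = 2.3e-09). Rgs8, a regulator of G protein signalling and one of the most abundant genes of the list, was at 1016, 978, 1022, 915 and 1030.4 CPM against 1571, 1820.2, 1728 and 1675 CPM (log2 fold change -0.78 ± 0.05, adjusted p = 1.2e-08). The defining markers fell less: Pcp2, a modulator of G proteins found in PCs, from 555 ± 21.0 to 405 ± 29.3 CPM (log2 fold change -0.45 ± 0.06, adjusted p = 2.3e-05), and the calcium buffer calbindin, Calb1, from 1161 ± 65.9 to 842 ± 52.1 CPM (log2 fold change -0.46 ± 0.06, adjusted p = 4.3e-05). Not all PC genes were called. The phospholipase gene Plcb4 was at 395 to 416 CPM in SCA7 and 404 to 458 CPM in WT mice (log2 fold change -0.10 ± 0.04, adjusted p = 0.14), and Rora, the orphan nuclear receptor required for PC development, had a log2 fold change of -0.18, below the fold limit. In these bulk samples fewer PCs and less RNA per PC cannot be told apart. Without WT replicate 1 the list had 31 lower members, and without SCA7 replicate 1 it had 32.

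Genes of both PC stripe types were affected. PCs that express aldolase C (zebrin II) alternate with PCs that do not in parasagittal stripes. Of 9 genes of zebrin-positive PCs, 5 fell, beside 2.66% of all genes tested. All 9 were lower in every SCA7 mouse than in every WT mouse, where 9.22% of all genes tested were. Kctd12, an auxiliary subunit of GABA-B receptors, was at 149, 152, 153, 137 and 154 CPM in SCA7 and 303, 312, 257 and 288 CPM in WT mice (log2 fold change -0.96 ± 0.06, adjusted p = 1.2e-08). Aldoc itself was at 1640.3, 1421, 1535, 1434 and 1489.9 CPM against 2401, 2419.7, 2127 and 2538 CPM (log2 fold change -0.66 ± 0.06, adjusted p = 6.1e-07), although astrocytes express this gene as well. Car7 (-0.45) and Gabbr2, a subunit of GABA-B receptors (-0.47), fell with them. Of the 5 genes of zebrin-negative PCs, 3 fell, among them the potassium channel gene Kcna6 (-0.48) and the transcription factor gene Ebf2 (-0.43). In 3 of the 5 every SCA7 mouse was below every WT mouse. Plcb4, given above, belongs to this list and was not called, and 1 gene of the 5 had a log2 fold change above 0 (0.16). The medians of the 2 lists were -0.45 and -0.43, and whether the stripe types differ was not tested.

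**Figure D3:**
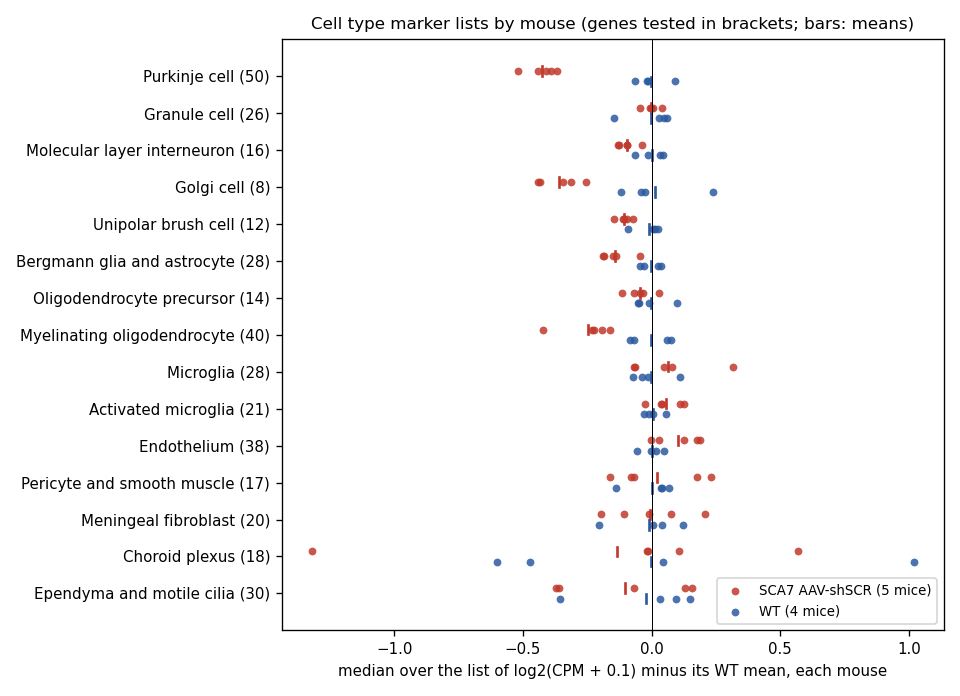
Median over each cell type list of log2(CPM + 0.1) minus the WT mean of the same gene, for each SCA7 AAV-shSCR (red) and WT (blue) mouse, with bars for the group means. The 5 SCA7 mice lie below the 4 WT mice for PC and myelinating oligodendrocyte markers, while choroid plexus markers spread from -1.3 to 1.0 within the groups.

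The cascade that leads through Gq to the IP3 receptor, a main postsynaptic signalling pathway of PCs, had 13 of 29 genes lower (44.8%, beside 2.66% of all genes tested) and none higher. The phospholipase C gene Plcb3 was at 52.9, 52.9, 56.4, 50.3 and 50.1 CPM in SCA7 and 96.4, 100.1, 85.7 and 93.5 CPM in WT mice (log2 fold change -0.84 ± 0.05, adjusted p = 1.3e-08). Itpr1, the IP3 receptor of the endoplasmic reticulum, was at 3448, 3331, 3428, 3164 and 3539 CPM against 4321, 4819.7, 4485 and 4427 CPM (log2 fold change -0.42 ± 0.05, adjusted p = 9.2e-06). Homer3, a postsynaptic scaffold that binds the IP3 receptor, fell from 502 ± 30.2 to 333 ± 23.1 CPM (log2 fold change -0.59 ± 0.05, adjusted p = 4.5e-07). Car8, a catalytically inactive carbonic anhydrase homologue that binds the IP3 receptor, fell from 1769 ± 111 to 1256 ± 65.3 CPM (log2 fold change -0.49 ± 0.05, adjusted p = 2.9e-06). Itpka and Inpp5a, the kinase and phosphatase that remove IP3, fell as well (-0.66 and -0.56). Dagla, which makes the endocannabinoid 2-arachidonoylglycerol from the diacylglycerol of this pathway, was at 122, 117, 119.8, 106 and 113 CPM against 194, 199, 186 and 194 CPM (log2 fold change -0.74 ± 0.04, adjusted p = 3.2e-09), while its target receptor gene Cnr1 was at 448 to 472 CPM in SCA7 and 448 to 517 CPM in WT mice (log2 fold change -0.09 ± 0.04, adjusted p = 0.11). Among modulators, the G protein subunit gene Gng13 fell to 85.9 ± 6.36 CPM from 157 ± 8.49 CPM (log2 fold change -0.87 ± 0.07, adjusted p = 2.0e-07) and the diacylglycerol kinase genes Dgkh and Dgkz had log2 fold changes of -0.53 and -0.40. The list kept 12 to 14 lower members when any single library was left out.

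Calcium pumps and buffers moved in both directions, with 9 of 41 genes lower and 3 higher, so that 29.3% were called beside 4.02% of all genes tested. The pumps of the endoplasmic reticulum Atp2a2 (SERCA2) and Atp2a3 (SERCA3) both fell, Atp2a2 from 1627 ± 59.9 to 1155 ± 16.3 CPM (log2 fold change -0.49 ± 0.04, adjusted p = 1.7e-07). The small calmodulin-binding protein gene Pcp4 was at 146, 142, 148, 135 and 148 CPM against 222, 256, 204 and 210.1 CPM (log2 fold change -0.63 ± 0.06, adjusted p = 1.8e-06). Cabp7 (-0.56), Hpcal1 (-0.56) and the reticulum protein gene Srl (-0.61) fell, and parvalbumin, Pvalb, had a log2 fold change of -0.32, below the fold limit. In the other direction, the ryanodine receptor gene Ryr3 was at 37.4, 39.2, 35.9, 48.5 and 46.3 CPM against 28.1, 25.1, 31.4 and 24.4 CPM (log2 fold change 0.60 ± 0.11, adjusted p = 0.0015). Necab1, a neuronal calcium-binding protein, was at 42.6, 44.9, 44.9, 45.7 and 47.8 CPM against 32.5, 28.6, 30.3 and 31.1 CPM (log2 fold change 0.56 ± 0.06, adjusted p = 4.0e-06), and the sodium/calcium exchanger gene Slc8a3 rose from 48.2 ± 1.497 to 63.2 ± 4.77 CPM (log2 fold change 0.39 ± 0.05, adjusted p = 2.3e-05). All 3 genes that rose were above every WT mouse in every SCA7 mouse.

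Regulators of the actin cytoskeleton of dendrites and spines had 17 of 43 genes lower and 1, Marcks, higher (41.9% called, beside 4.02% of all genes tested). The guanine nucleotide exchange factor gene Plekhg4 was at 13.9, 14.05, 14.4, 13.7 and 14.1 CPM in SCA7 and 21.6, 24.6, 24.4 and 23.4 CPM in WT mice (log2 fold change -0.74 ± 0.08, adjusted p = 7.3e-06). Arhgef33, of the same kind, was at 135, 122.96, 125, 116 and 130.0 CPM against 202, 222, 197 and 210.0 CPM (log2 fold change -0.72 ± 0.05, adjusted p = 4.6e-08), and Arhgap20, of a GTPase-activating protein, at 71.9, 72.1, 65.1, 68.2 and 68.3 CPM against 106, 109, 106 and 100.3 CPM (log2 fold change -0.61 ± 0.04, adjusted p = 5.2e-08). The groups did not overlap in any of these genes, nor in 511 of all 597 called genes. Rhobtb2, an atypical GTPase, fell with a log2 fold change of -0.62, and Mtss1, which bends the membrane in growing spines, with -0.44. Without WT replicate 1, 15 genes of this actin list were called lower and its median moved from -0.19 to -0.07. At the synapses of parallel and climbing fibres 5 of 43 genes fell (11.6%, beside 2.66% of all genes tested). They were Grid2ip and Homer3, given above, the postsynaptic scaffold gene Shank2 (log2 fold change -0.51 ± 0.04, adjusted p = 2.0e-07), the calsyntenin gene Clstn2 (log2 fold change -0.74 ± 0.08, adjusted p = 9.6e-06) and the pentraxin gene Nptx2, whose call was lost without WT replicate 1 (log2 fold change -1.11, adjusted p = 0.16) and without SCA7 replicate 1 (-1.49, adjusted p = 0.072). Cbln1, a presynaptic organiser that granule cells secrete, had a log2 fold change of -0.25 with adjusted p = 0.0073, below the fold limit.

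Voltage-gated potassium channels had 8 of 35 tested members lower and 1, Kcnb2, higher, so that 25.7% were called beside 4.02% of all genes tested. Kcng4, which encodes a modifying subunit, was at 167.4, 145, 159, 136 and 155 CPM in SCA7 and 203, 217, 228 and 215 CPM in WT mice (log2 fold change -0.50 ± 0.05, adjusted p = 2.5e-06). Without WT replicate 1, 5 genes of this list were called lower and the median of the list moved from -0.27 to -0.06. The large-conductance calcium-activated channel gene Kcnma1 fell from 360.2 ± 18.0 to 266 ± 13.2 CPM (log2 fold change -0.44 ± 0.05, adjusted p = 7.2e-06), and so did Kcnip1 and Kcnip4, encoding subunits of Kv4 channels (-0.40 and -0.42). The two-pore channel gene Kcnk13 was at 3.66, 3.63, 4.04, 3.36 and 2.66 CPM against 6.84, 6.48, 6.95 and 6.23 CPM (log2 fold change -0.93 ± 0.13, adjusted p = 9.9e-05).

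Calcium and sodium channel genes were divided by subunit. Cacna1a, the P/Q-type calcium channel and the gene of spinocerebellar ataxia type 6, was not called, at 598, 555, 528, 592 and 590.0 CPM in SCA7 and 556, 631, 607 and 592 CPM in WT mice (log2 fold change -0.06 ± 0.04, adjusted p = 0.41). Cacna1g, a T-type channel of PCs, fell from 477 ± 23.2 to 359 ± 21.1 CPM (log2 fold change -0.41 ± 0.04, adjusted p = 3.9e-06), and the beta subunit gene Cacnb2 from 58.5 ± 1.14 to 41.4 ± 2.001 CPM (log2 fold change -0.50 ± 0.05, adjusted p = 3.9e-06). The R-type channel gene Cacna1e rose instead, to 320.1, 349, 307, 394 and 348 CPM from 234, 244, 252 and 239 CPM (log2 fold change 0.50 ± 0.06, adjusted p = 1.2e-05). Thus 3 of 23 calcium channel genes were lower and 2 higher (21.7% called, beside 4.02% of all genes tested). Scn4b, the beta subunit linked to the resurgent sodium current of PCs, was at 92.5, 85.5, 97.6, 80.4 and 83.5 CPM against 160.5, 131, 138 and 131 CPM (log2 fold change -0.67 ± 0.06, adjusted p = 1.1e-06), whereas Scn1a was at 236 to 263 CPM against 238 to 279 CPM (log2 fold change -0.06 ± 0.05, adjusted p = 0.53). Fgf11, an intracellular partner of sodium channels, fell (-0.53). The pacemaker channel gene Hcn4 had a log2 fold change of -0.73 and its highest value in WT replicate 1, and Clcn1, a chloride channel, of -0.43.

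Neurotransmitter receptors with calls were found in several families, whose shares were not tested against each other. Over all genes tested, 4.02% were called and 2.66% were lower. Of 18 AMPA, kainate, NMDA and delta receptor genes only the kainate receptor gene Grik1 fell, from 35.6 ± 2.31 to 24.8 ± 1.11 CPM (log2 fold change -0.52 ± 0.05, adjusted p = 1.1e-06), with Gria1 at a log2 fold change of -0.05. Of 7 metabotropic glutamate receptor genes tested, all had lower means in SCA7 mice and 2 were called. Grm4, the presynaptic receptor of parallel fibres, was at 414, 398, 395, 427 and 382 CPM in SCA7 and 625, 742, 674 and 681 CPM in WT mice (log2 fold change -0.76 ± 0.05, adjusted p = 1.3e-08). Grm2 was at 17.9, 21.2, 20.8, 18.5 and 19.6 CPM against 30.2, 33.3, 32.8 and 33.0 CPM (log2 fold change -0.72 ± 0.06, adjusted p = 1.5e-07). The groups lay clearly apart in both. Of 22 GABA and glycine receptor genes 2 fell and none rose, with Gabbr2, given above, among the former. Among 38 receptors of acetylcholine and amines, 5 fell and none rose: besides Chrnb4, the histamine receptor gene Hrh2 was at 5.18, 4.48, 4.78, 3.63 and 3.86 CPM against 10.3, 10.02, 9.67 and 9.27 CPM (log2 fold change -1.16 ± 0.10, adjusted p = 8.0e-07), Hrh3 had a log2 fold change of -0.51, the serotonin receptor gene Htr1b of -0.56, and the call of Adra2a was lost without WT replicate 1 (log2 fold change -0.28, adjusted p = 0.071). Without WT replicate 1, 4 of the acetylcholine and amine receptor genes were called lower and 1 higher. The median of that list then moved from -0.27 to -0.08. Rgs17 rose from 42.0 ± 8.25 to 56.4 ± 0.691 CPM (log2 fold change 0.42 ± 0.09, adjusted p = 0.0056), where the highest WT value was that of replicate 1.

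Of 38 phosphodiesterases, cyclases and kinases of cGMP and cAMP, 3 were lower and 1 higher (10.5% called, beside 4.02% of all genes tested), with a median log2 fold change of -0.06 over the family. Those that fell were Npr1, a receptor that makes cGMP, from 22.3 ± 1.66 to 13.6 ± 1.14 CPM (log2 fold change -0.71 ± 0.07, adjusted p = 2.8e-06), the cGMP-dependent kinase gene Prkg1 from 43.3 ± 2.12 to 30.5 ± 3.58 CPM (log2 fold change -0.50 ± 0.08, adjusted p = 4.5e-04), and Pde5a, which degrades cGMP, from 133 ± 8.93 to 84.1 ± 3.36 CPM (log2 fold change -0.66 ± 0.05, adjusted p = 1.8e-07). Pde3a rose (log2 fold change 0.45 ± 0.06, adjusted p = 8.0e-05). Of 6 genes of 14-3-3 proteins, Ywhah fell, from 366, 398, 397 and 384 CPM in WT to 277, 269, 272, 254 and 275 CPM in SCA7 mice (log2 fold change -0.52 ± 0.03, adjusted p = 1.2e-08). Camk2a had a log2 fold change of -0.67, with 239, 152, 139 and 149 CPM in WT mice, the first of these the library that stood apart, and 114, 104, 112, 98.4 and 105 CPM in SCA7 mice, and it was lower without that library (log2 fold change -0.46, adjusted p = 0.039). In vesicle fusion, Syt7 (-0.42), Doc2b (-0.61), Unc13d (-0.70) and Cplx3 (-1.11) fell and Rims3 (0.41) and Syt15 (0.75) rose among 48 genes, while the main calcium sensor gene of release, Syt1, had a log2 fold change of 0.07.

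**Figure D4:**
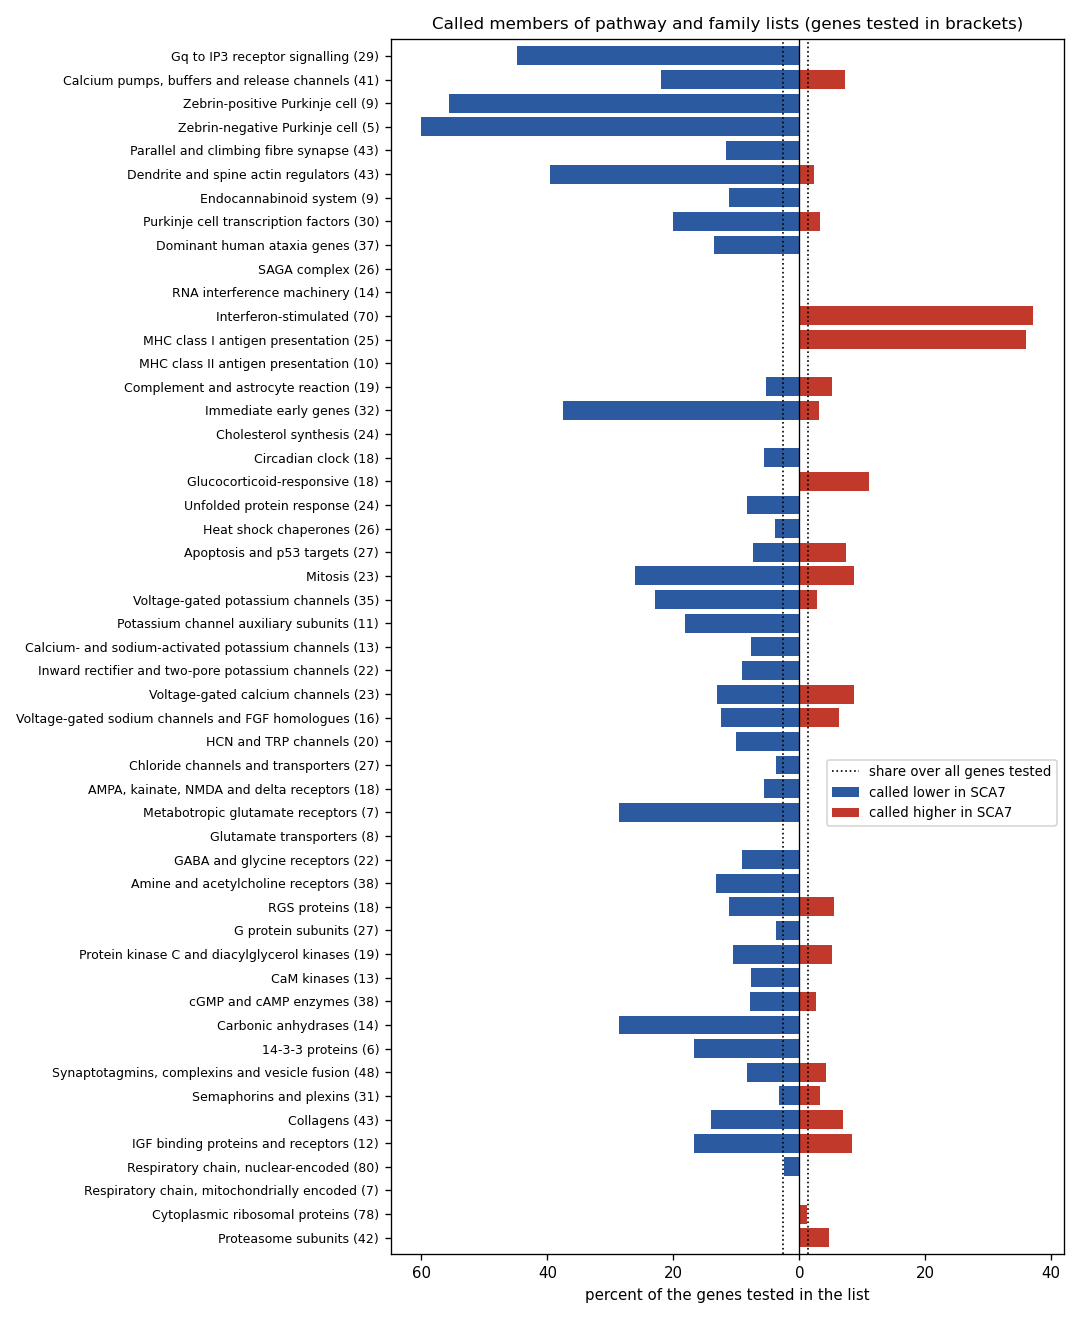
Share of the genes tested in each pathway and family list that was called lower (blue, to the left) or higher (red, to the right) in SCA7 AAV-shSCR mice, in percent, with dotted lines at the shares over all genes tested (2.66% and 1.35%). The lists of PC signalling and of dendritic actin reach to the left, the interferon-stimulated and MHC class I lists to the right, and the SAGA complex and RNA interference lists have no called member.

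Transcription factors of PCs and other cerebellar neurons had 6 of 30 tested genes lower and 1 higher (23.3% called, beside 4.02% of all genes tested). Lhx5, a LIM homeobox factor, was at 12.8, 9.91, 10.3, 10.5 and 11.9 CPM in SCA7 and 18.4, 20.8, 16.3 and 17.8 CPM in WT mice (log2 fold change -0.72 ± 0.08, adjusted p = 8.9e-06). Bcl11a and Hes3 fell too (-0.45 and -0.43). Onecut2 rose from 5.87 ± 0.771 to 9.13 ± 1.17 CPM (log2 fold change 0.64 ± 0.13, adjusted p = 0.0036). Without WT replicate 1, 7 genes of this list were called lower, while its median moved from -0.14 to -0.04. Of 37 genes mutated in dominant ataxias, Atxn7 included, 5 fell (13.5%, beside 2.66% of all genes tested) and none rose, with Plekhg4, Itpr1 and Cacna1g among those that fell. The 26 genes of the SAGA complex had no called member in edgeR or DESeq2, with a median log2 fold change of 0.06. In edgeR 4 had an unadjusted and 2 an adjusted p under 0.05, the latter below the fold limit. Of all 14862 genes tested, 4271 had an unadjusted and 2309 (15.5%) an adjusted p under 0.05. The deubiquitinase gene of the complex, Usp22, was at 248 to 261 CPM against 237 to 244 CPM (log2 fold change 0.07 ± 0.04, adjusted p = 0.18). The 14 genes of the RNA interference machinery, which a hairpin vector uses, also had none by either tool. In edgeR 7 of them had an unadjusted and 4 an adjusted p under 0.05, the latter below the fold limit. Ago2 was at 162.7 to 169.8 CPM against 174 to 189 CPM (log2 fold change -0.11 ± 0.03, adjusted p = 0.026).

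The shares of called markers varied among the other cerebellar neurons, and differences between cell types were not tested. Of 26 granule cell markers 1 was called, which is 3.85% beside 4.02% of all genes, and this was Synpr, a synaptic vesicle protein, which rose from 66.4, 67.2, 61.8 and 71.6 CPM in WT to 98.3, 91.5, 91.2, 90.8 and 97.3 CPM in SCA7 mice (log2 fold change 0.49 ± 0.04, adjusted p = 3.0e-07). Gabra6, the GABA-A receptor subunit that defines granule cells, was at 809.7, 819, 819, 805 and 785 CPM against 685, 786, 739.6 and 792 CPM (log2 fold change 0.11 ± 0.04, adjusted p = 0.084). The summed level of the list was 13696 to 14164 CPM in SCA7 and 13184 to 15176 CPM in WT mice, and its median of -0.02 turned to 0.03 with library totals alone. None of 16 markers of molecular layer interneurons was called in edgeR or DESeq2, but 14 had log2 fold changes below 0. In edgeR 5 of the 16 had an adjusted p under 0.05 and missed only the fold limit. Of all genes tested, 15.5% had such an adjusted p. The summed level of all 16 was 2174 to 2313 CPM in SCA7 and 2472 to 2625 CPM in WT mice. Kit was at 259 to 282 CPM against 267 to 302 CPM (log2 fold change -0.08 ± 0.04, adjusted p = 0.20). Of 8 Golgi cell markers tested, Grm2 and Nrg1 fell (25%) and all 8 were lower in mean, with a median of -0.36 that was -0.18 without WT replicate 1, and with Lgi2 at 122, 115, 124, 112 and 133 CPM against 169.3, 148, 155 and 152 CPM, just under the fold limit (log2 fold change -0.37 ± 0.05, adjusted p = 4.1e-05). Eomes, the transcription factor of unipolar brush cells, fell to 12.9, 13.1, 17.1, 9.12 and 16.8 CPM in SCA7 from 27.8, 25.2, 31.5 and 39.7 CPM in WT mice (log2 fold change -1.17 ± 0.19, adjusted p = 3.6e-04) and had the largest change of the 12 markers of these interneurons, of which 2 were called (16.7%), both lower.

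Genes of myelinating oligodendrocytes fell: 13 of 40 were lower (32.5%, beside 2.66% of all genes tested) and none higher, with a median log2 fold change of -0.25. The carbonic anhydrase gene Car2 was at 138, 145, 147, 129.9 and 122.98 CPM in SCA7 and 225, 209, 221 and 222 CPM in WT mice (log2 fold change -0.68 ± 0.06, adjusted p = 4.0e-07), and Ugt8a, which makes the myelin lipid galactosylceramide, at 42.9, 45.3, 48.7, 45.4 and 37.9 CPM against 74.7, 64.4, 73.5 and 68.5 CPM (log2 fold change -0.67 ± 0.08, adjusted p = 8.8e-06). The SCA7 mice lay below the WT mice in both, with SCA7 replicate 5 the lowest. Klk6 (-0.68) and Aspa (-0.55) fell with them, and Mbp, at 2214 to 2700.4 CPM against 2882 to 3475 CPM, missed the fold limit (log2 fold change -0.33 ± 0.07, adjusted p = 0.0023). None of 14 markers of oligodendrocyte precursors was called by either tool. In edgeR 3 had an unadjusted and 2 an adjusted p under 0.05, beside 4271 and 2309 of all 14862 genes tested. The receptor gene Pdgfra of these precursors was at 22.7 to 26.3 CPM against 24.4 to 28.3 CPM (log2 fold change -0.05 ± 0.07, adjusted p = 0.73). Of 28 Bergmann glia and astrocyte markers, Aldoc and the angiotensinogen gene Agt fell (-0.45), a share of 7.14% beside 2.66% of all genes tested. The glutamate transporter gene Slc1a3 (-0.11) and Gfap (-0.13) were not called. Log2 fold changes were below 0 in 23 of the 28, with a median of -0.13. In edgeR 8 of the 28 had an adjusted p under 0.05, beside 15.5% of all genes tested. Il33, a nuclear cytokine made by glia, was at 21.96, 22.8, 24.2, 19.2 and 20.6 CPM in SCA7 and 49.6, 39.5, 42.4 and 39.0 CPM in WT mice (log2 fold change -0.97 ± 0.07, adjusted p = 1.3e-07).

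Few microglial markers were called. Of 28 markers 1 passed (3.57%, beside 4.02% of all genes tested), Gpr34, which was lower and lost its call without WT replicate 1. The defining markers Cx3cr1 and Tmem119 were at 13.8 to 19.9 and 8.98 to 12.5 CPM in SCA7 and 16.4 to 20.3 and 9.32 to 11.9 CPM in WT mice, with adjusted p of 0.29 and 0.91. The median of the list was 0.10, and 0.01 without both first replicates. Of 21 genes of activated microglia tested, Cst7 and Lgals3 rose (1.83 and 0.55), the latter not without WT replicate 1 (log2 fold change 0.45, adjusted p = 0.10) or without SCA7 replicate 1 (0.55, adjusted p = 0.054). Cst7 stayed below 1 CPM in every mouse.

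The called endothelial genes split evenly, with 6 of 38 higher and 6 lower, and 31.6% called in all, beside 4.02% of all genes tested. Over the whole list 26 log2 fold changes were above 0 and 12 below, with a median of 0.09. Without WT replicate 1, 7 genes were called higher and 5 lower. Vwf, the von Willebrand factor, was at 35.6, 36.6, 34.6, 41.1 and 35.8 CPM in SCA7 and 24.2, 23.7, 22.3 and 19.97 CPM in WT mice (log2 fold change 0.70 ± 0.13, adjusted p = 0.0010). Cd34, a surface sialomucin, was at 29.0, 31.9, 29.4, 27.7 and 27.9 CPM against 20.5, 20.7, 21.5 and 18.8 CPM (log2 fold change 0.52 ± 0.05, adjusted p = 1.5e-06), and the endomucin gene Emcn rose from 7.12 ± 0.271 to 10.2 ± 0.870 CPM (log2 fold change 0.52 ± 0.08, adjusted p = 3.0e-04). Sox7 (0.67) and Slc39a8 (0.49) rose too. On the other side, Plvap, which forms the diaphragms of fenestrated vessels, was at 17.2, 15.02, 14.9, 16.8 and 15.03 CPM against 23.8, 25.7, 25.1 and 25.8 CPM (log2 fold change -0.67 ± 0.07, adjusted p = 2.8e-06). Procr, the receptor of protein C, fell from 3.10 ± 0.0802 to 1.80 ± 0.241 CPM (log2 fold change -0.79 ± 0.12, adjusted p = 1.6e-04), and Cldn5, the tight junction claudin, from 32.1 ± 4.31 to 24.3 ± 2.39 CPM (log2 fold change -0.40 ± 0.08, adjusted p = 0.0036). Klf2 and Klf4, factors that respond to blood flow and are also immediate early genes, fell (-0.78 and -0.78), but Klf2, at 6.79, 15.4, 7.24, 6.58 and 8.01 CPM against 18.9, 13.7, 10.6 and 17.0 CPM, was within the WT range in SCA7 replicate 2, and its call was lost without WT replicate 1 and without SCA7 replicate 1. The common marker Pecam1 had a log2 fold change of 0.22, below the fold limit. Of the pericyte list, Pdgfrb had a log2 fold change of 0.12. Red blood cell genes were at low levels and Hbb-bs, at 16.7, 1.80, 5.53, 9.42 and 1.65 CPM in SCA7 and 1.27, 1.66, 2.86 and 2.23 CPM in WT mice, was high in SCA7 replicates 1, 3 and 4 only, and its call was lost without SCA7 replicate 1 (log2 fold change 1.2002, adjusted p = 0.090) and without WT replicate 1 (1.63, adjusted p = 0.083).

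Interferon-stimulated genes were among the lists with members called higher. Of 74 listed, 70 were tested, 26 were higher (37.1%, beside 1.35% of all genes tested) and none was lower, and 63 had higher means in SCA7 mice. The median over the list was a log2 fold change of 0.43. Irf7, the transcription factor that amplifies the response to type I interferon, was at 12.99, 14.9, 7.14, 8.22 and 10.2 CPM in SCA7 and 3.65, 4.18, 4.92 and 7.06 CPM in WT mice (log2 fold change 1.11 ± 0.21, adjusted p = 0.0012). Ifi27l2a was at 6.58, 4.17, 3.32, 3.16 and 4.90 CPM against 1.51, 1.45, 2.08 and 2.13 CPM (log2 fold change 1.303 ± 0.22, adjusted p = 6.0e-04), and the helicase gene Ddx60 at 2.80, 2.54, 1.69, 2.13 and 2.61 CPM against 1.096, 1.098, 1.12 and 1.38 CPM (log2 fold change 1.002 ± 0.21, adjusted p = 0.0036). SCA7 replicates 1 and 2 were the highest in Irf7 and replicate 1 in Ifi27l2a, but all 5 SCA7 mice exceeded all 4 WT mice. Mndal, of the p200 family, rose from 2.79 ± 0.577 to 5.40 ± 0.566 CPM (log2 fold change 0.96 ± 0.18, adjusted p = 0.0018), a value that is uncertain as near-identical neighbours may share its reads. Isg15, the ubiquitin-like defining gene, was at 3.60, 4.60, 3.35, 2.40 and 3.17 CPM against 1.70, 1.88, 2.72 and 3.12 CPM and was not called (log2 fold change 0.55 ± 0.21, adjusted p = 0.092). WT replicate 1 was the lowest of the WT mice in 25 of the 35 genes called in this list or the next. Without it 16 interferon genes were called, without SCA7 replicate 1, 22, and without both, 11, and the medians were 0.35, 0.40 and 0.33.

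MHC class I genes rose with them, 9 of 25 tested (36%, beside 1.35% of all genes tested) and none lower. Nlrc5, the transactivator of these genes, was at 7.48, 3.80, 2.68, 2.60 and 2.55 CPM in SCA7 and 1.13, 1.53, 1.43 and 2.34 CPM in WT mice (log2 fold change 1.25 ± 0.31, adjusted p = 0.011). H2-K1, a classical heavy chain, was at 68.5, 49.8, 45.2, 44.4 and 45.02 CPM against 31.4, 33.8, 31.2 and 31.7 CPM (log2 fold change 0.66 ± 0.12, adjusted p = 8.3e-04), and B2m, the light chain, at 191, 139, 128, 119 and 137 CPM against 101, 113, 103 and 95.4 CPM (log2 fold change 0.47 ± 0.10, adjusted p = 0.0043). SCA7 replicate 1 was far above the other mice in Nlrc5, H2-K1 and B2m, and without it B2m was no longer called (log2 fold change 0.35, adjusted p = 0.0012), while H2-K1 was (0.53, adjusted p = 2.8e-04). The list then had 7 called members, 9 without WT replicate 1 and 5 without both. The immunoproteasome gene Psmb8 (0.74) and the activator gene Psme1 (0.49) rose. The Qa genes H2-Q4, H2-Q6 and H2-Q7 had log2 fold changes of 0.81, 1.24 and 1.48, which are uncertain as reads of near-identical H2 genes may be divided among them. None of 10 MHC class II genes tested was called by either tool. In edgeR 2 had an unadjusted p under 0.05, beside 4271 of all 14862 genes tested. All 10 had higher means in SCA7 mice, with a median of 0.33. Cd74 was at 23.98, 14.8, 15.1, 10.6 and 10.3 CPM against 9.34, 10.5, 10.7 and 11.3 CPM (log2 fold change 0.52 ± 0.20, adjusted p = 0.090). Of 24 genes of lymphocytes 6 were tested, with CD3 chains among those below the filter. In 3 WT mice given another hairpin vector (AAV-shA4) and compared with 3 untreated WT mice at 9w, 8 of 14733 genes were called (0.0543%; 1 without AAV-shA4 replicate 2 and 43 without replicate 3), and the median log2 fold change was 0.14 for the interferon list, 0.16 for the MHC class I list and 1.08 for the MHC class II list, whose 9 tested genes all had higher means in the vector-treated mice with none past the adjusted p. H2-K1 was not called there (log2 fold change 0.49 ± 0.21, adjusted p = 0.42). The study compared AAV-shSCR with saline in SCA7 mice by western blot and reported no effect on interferon beta or IRF7. That was protein, at an earlier time after injection than here. The age, the hairpin and the genotype all differ between the 2 RNA settings, so the part of the vector in the higher levels of SCA7 mice cannot be told apart from that of the genotype.

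**Figure D5:**
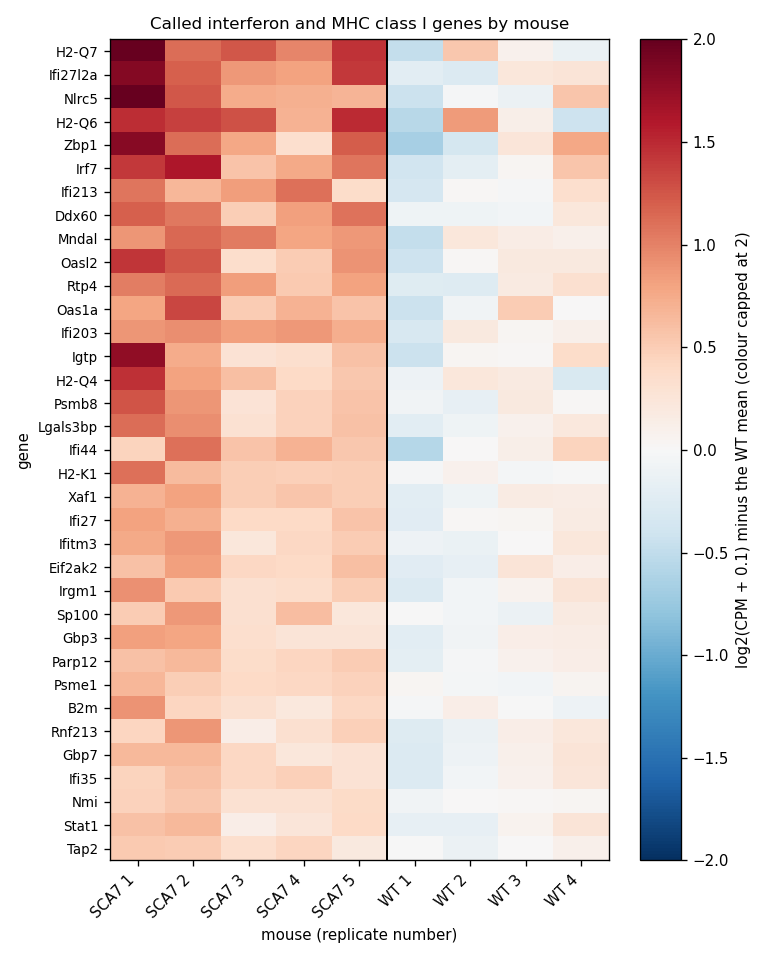
Each row is a called gene of the interferon-stimulated or MHC class I list and each column a mouse, and colour gives log2(CPM + 0.1) minus the WT mean of the gene. Of the 35 genes, 27 were higher in every SCA7 mouse than in every WT mouse, beside 7.54% of all genes tested. The 35 were chosen as called genes, and the groups did not overlap in 511 of all 597 called genes. Such separation is thus not particular to these lists. SCA7 replicate 1 was the highest in 17 and replicate 2 in 16, and WT replicate 1 was the lowest WT mouse in 25.

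Interferon acts on such genes through a promoter element bound by ISGF3 and IRF factors, and its core, GAAA followed by any 2 bases and a second GAAA, was searched on both strands in the RefSeq promoters of build GRCm38.p6, from 250 bases before to 50 bases after each start. It was found in 30 of the 54 genes of the interferon list that had a promoter there (55.6%), in 11 of the 21 called genes (52.4%) and in 19 of the 33 that were not called (57.6%), beside 3.99% of all 27025 genes with a promoter and 3.60% of the genes tested. The shares in called and uncalled members of the list were thus close. For 5 of the called genes, the 30 bases around the first match are shown as read along the gene, with the match in capitals (in Gbp3 the reverse complement), because these are the windows that carry the shared element.
Ddx60 (chr8:61928024-61928053, plus strand): gtgatgaatgGAAACCGAAActtaaagctt
Mndal (chr1:173880204-173880233, minus strand): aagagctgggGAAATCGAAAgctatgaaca
Oas1a (chr5:120907526-120907555, minus strand): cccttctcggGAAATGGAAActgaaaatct
Igtp (chr11:58199512-58199541, plus strand): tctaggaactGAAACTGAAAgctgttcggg
Gbp3 (chr3:142559989-142560018, plus strand): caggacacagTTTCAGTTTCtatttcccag
These matches begin 53, 36, 20, 34 and 45 bases before the start of Ddx60, Mndal, Oas1a, Igtp and Gbp3. The log2 fold changes of the 5 genes, in the same order, were 1.002, 0.96, 0.86, 0.85 and 0.52. The calls of Oas1a, Igtp and Gbp3 were lost without WT replicate 1 (log2 fold change 0.70, adjusted p = 0.12, 0.72, adjusted p = 0.13 and 0.45, adjusted p = 0.059), and those of Oas1a and Igtp also without SCA7 replicate 1 (0.87, adjusted p = 0.057 and 0.49, adjusted p = 0.11). Igtp was also not called in limma-voom or with the 9 libraries alone.

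Immediate early genes, which neurons and vessels induce within minutes of a stimulus, had 12 of 32 lower and 1 higher (40.6% called, beside 4.02% of all genes tested). Dusp5, a phosphatase of ERK kinases, was at 75.4, 82.6, 82.4, 59.5 and 80.8 CPM in SCA7 and 136, 143, 147 and 164.3 CPM in WT mice (log2 fold change -0.95 ± 0.09, adjusted p = 2.4e-06). Egr4 fell from 3.32 ± 0.494 to 2.06 ± 0.357 CPM (log2 fold change -0.68 ± 0.17, adjusted p = 0.010). Jun rose instead, at 75.5, 67.1, 70.9, 73.3 and 69.6 CPM against 52.9, 54.4, 51.7 and 52.3 CPM (log2 fold change 0.43 ± 0.05, adjusted p = 2.3e-05). Fos was at 9.41, 30.9, 19.1, 4.59 and 10.6 CPM in SCA7 and 31.0, 21.4, 18.6 and 31.5 CPM in WT mice, and it varied several-fold among the SCA7 mice and was not called (log2 fold change -0.78 ± 0.39, adjusted p = 0.19), and Fosb and Egr1 were called although the groups overlapped, Egr1 neither without WT replicate 1 nor without SCA7 replicate 1. Without SCA7 replicate 1, 8 genes of the list were called lower, and without WT replicate 1, 9.

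Among 27 genes of apoptosis and p53 targets 2 rose, Hrk among them, and 2 fell, so that 14.8% were called beside 4.02% of all genes tested. Trp73, the p53 relative, fell from 13.2 ± 1.56 to 8.91 ± 0.4997 CPM (log2 fold change -0.57 ± 0.10, adjusted p = 8.3e-04), and Phlda3 was called lower (-0.44) but not without WT replicate 1. In the unfolded protein response 2 of 24 genes fell (8.33%), Sdf2l1 (log2 fold change -0.70 ± 0.18, adjusted p = 0.016) and the chaperone gene Hspa5, at 239.6 to 297 against 298 to 382 CPM (log2 fold change -0.39 ± 0.12, adjusted p = 0.033; -0.37, adjusted p = 0.071 without SCA7 replicate 1), and of 26 heat shock chaperones 1, Hspa1b, was called (-0.54), a share of 3.85% that is near the background. Of 23 genes of mitosis tested, 6 were lower and 2 higher (34.8% called). Spag5, a spindle protein, was at 22.4, 18.9, 18.9, 17.8 and 20.8 CPM against 33.4, 34.5, 32.0 and 36.5 CPM (log2 fold change -0.79 ± 0.09, adjusted p = 1.8e-05).

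Extracellular matrix and growth factor genes included some of the larger changes. Collagens had 6 of 43 genes lower and 3 higher (20.9% called, beside 4.02% of all genes tested). Col5a1 was at 17.8, 14.6, 16.9, 18.0 and 13.3 CPM in SCA7 and 29.0, 34.8, 30.5 and 32.2 CPM in WT mice (log2 fold change -0.97 ± 0.09, adjusted p = 1.5e-06), and Col18a1, the source of endostatin, at 98.4, 86.8, 93.0, 85.4 and 80.5 CPM against 134, 156, 139 and 146 CPM (log2 fold change -0.69 ± 0.06, adjusted p = 5.3e-07). Col19a1 rose (0.54). The protease gene Pappa, whose product cleaves IGF binding proteins, was at 18.4, 18.7, 23.5, 24.4 and 16.2 CPM against 8.43, 12.2, 10.6 and 11.6 CPM (log2 fold change 0.92 ± 0.14, adjusted p = 2.7e-04), beside the fall of Igfbp5. Sema7a, a membrane semaphorin, fell from 336 ± 10.1 to 228 ± 13.6 CPM (log2 fold change -0.56 ± 0.04, adjusted p = 4.9e-08), and Sema3g rose (0.49).

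Most lists of basic cell functions had shares of called genes near or below the 4.02% of all genes tested. Of 80 nuclear genes of the respiratory chain 2 were lower (2.5%), and both, Cox6a2 and Cox6b2, were below 10 CPM, the latter not called without SCA7 replicate 1. None of 7 mitochondrial genes tested was called by either tool. In edgeR, however, 6 of them had an unadjusted and 2 an adjusted p under 0.05, beside 4271 and 2309 of all 14862 genes tested. Log2 fold changes were below 0 in 6 of the 7, with a median of -0.16. Among the 7, mt-Co1 was at 7486 to 8628 CPM against 8825 to 9968 CPM (log2 fold change -0.22 ± 0.04, adjusted p = 0.0024). Of 78 ribosomal protein genes only Rpl9 was called (0.39), which may share reads with its copies and was not called without either first replicate. Of 24 genes of cholesterol synthesis none was called by either tool (in edgeR 9 at an unadjusted and 3 at an adjusted p under 0.05). In the circadian clock list 1 gene of 18 was called (5.56%), and it was lower. Plin4 and Sult1a1 rose among 18 genes that glucocorticoids induce (0.99 and 0.39), a share of 11.1% beside 1.35% of all genes tested. The groups overlapped in both, and the call of Sult1a1 was lost without SCA7 replicate 1. Fkbp5 had a log2 fold change of 0.31 with adjusted p = 0.11.

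Among 3180 tested genes that are not protein-coding, 147 were called (4.62%), 78 higher and 69 lower. Gm15083, annotated antisense on chromosome 6 from 114004789 to 114052265, was at 0.970, 0.647, 0.464, 0.489 and 0.393 CPM in SCA7 and 3.72, 3.86, 3.95 and 3.80 CPM in WT mice (log2 fold change -2.70 ± 0.21, adjusted p = 1.2e-07), and the counting of strands is not stated, so reads of the opposite gene cannot be told apart. The long non-coding RNA gene Gm39465 was at 5.76, 5.12, 4.69, 4.45 and 5.003 CPM against 18.6, 22.1, 20.5 and 22.1 CPM (log2 fold change -2.06 ± 0.10, adjusted p = 9.3e-10). The transcript 4930447F24Rik was at 2.08 to 3.47 CPM against 7.10 to 8.62 CPM (log2 fold change -1.62 ± 0.13, adjusted p = 2.0e-07). All 3 lay lower in every SCA7 mouse. The processed pseudogene Gm8420, on chromosome 1, was at 1.18, 1.21, 1.71, 1.41 and 1.205 CPM in SCA7 mice, with 248 reads in all, and had 0 reads in the 4 WT mice, so that it was at least 79.5-fold higher, taking 3 reads over the WT group as the floor. AC170187.1, a processed pseudogene on chromosome 19, had 504 reads in SCA7 and 9 in WT mice. A pseudogene can share reads with its parent gene, so both values are uncertain. The 5 SCA7 mice given another hairpin (AAV-shA4) at 25w had 1.32 to 1.501 CPM of Gm8420 and 2.04 to 3.21 CPM of AC170187.1.

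Genes close to Atxn7 on chromosome 14 had a larger share of calls than the 4.02% of all genes, in windows chosen with the counts in hand, and this difference was not tested. Within 2 Mb of the gene 3 of 12 tested genes were called (25%), within 5 Mb 5 of 24 (20.8%) and within 10 Mb 8 of 75 (10.7%). Those within 2 Mb were Synpr and Il3ra, which rose as given above, and the olfactory receptor gene Olfr31, which stayed below 1 CPM (log2 fold change -1.31 ± 0.42, adjusted p = 0.044) and was not called in DESeq2 or limma-voom, with the replicate number as a block (adjusted p = 0.066), or without SCA7 replicate 1 (-1.42, adjusted p = 0.050). Kcnma1, lower as given above, is among the 8. The sequence of this region in the 2 groups was not analysed here.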

How the data were processed

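The authors made stranded poly(A) libraries, sequenced single 50-base reads, aligned them to mm10 with STAR 2.5.3a after adapter and rRNA removal (cutadapt 1.10, Bowtie2 2.2.8), and deposited raw counts per gene from HTSeq 0.6.1p1. Whether the counting used strand is not given in the sources used here. These deposited counts were analysed with edgeR 4.0.16 in R 4.3.3: protein-coding genes passing filterByExpr (minimum count 10, minimum total 15), TMM scaling, and a quasi-likelihood fit of the 14 libraries of 25w, which share 1 estimate of the spread, with Benjamini-Hochberg adjustment over all genes tested. CPM use TMM-scaled totals, and errors of log2 fold changes are SE. DESeq2 1.42.0 and limma 3.58.1 were alternatives, and scripts were tested on simulated data.

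The members and the 69 gene lists were chosen with earlier results of these data known. Named were Atxn7, the 12 largest changes per direction with separate groups and at least 1 CPM in the higher group, the 8 smallest adjusted p, up to 5 called members per list and direction, the defining genes of each list and 3 non-coding genes per direction. Atp2a3, Inpp5a, Gbp3, Igtp, Oas1a and Olfr31 lie outside this rule and were chosen after their values were seen. Two-sided exact permutation was used for Atxn7. Reads of the eGFP vector were not analysed here. Some genes that this rule names are not reported here.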

Additional observations from a re-analysis of the deposited data

Results flagged for a closer look

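For the 183 genes named in the text, each group was searched for a mouse whose gap to its nearest neighbour took up most of the range of its group (above Dixon's 95% critical value for 4 or 5 mice). This was met in 26 of 366 gene and group pairs (7.1%), where chance gives about 1 in 20. WT replicate 2 was the lowest mouse for Agt (94.5 CPM, 0.836 of the range) and was the highest mouse for Shank2 (392.1 CPM, 0.852 of the range). SCA7 replicate 4 was the lowest mouse for Atp2a2 (1127 CPM, 0.786 of the range), Cacnb2 (38.0 CPM, 0.735 of the range), Igfbp5 (118 CPM, 0.816 of the range), Srl (8.63 CPM, 0.761 of the range) and Unc13d (7.40 CPM, 0.763 of the range) and was the highest mouse for Hrk (23.1 CPM, 0.749 of the range). SCA7 replicate 1, the library high in antigen presentation genes, was the highest mouse for B2m (191 CPM, 0.722 of the range), H2-K1 (68.5 CPM, 0.778 of the range), Igtp (16.5 CPM, 0.794 of the range) and Nlrc5 (7.48 CPM, 0.748 of the range). WT replicate 1, the library with high markers of other brain regions, was the highest mouse for Camk2a (239 CPM, 0.87 of the range), Cckbr (6.46 CPM, 0.945 of the range), Pdgfra (28.3 CPM, 0.924 of the range), Ptk2b (27.0 CPM, 0.943 of the range) and Rgs17 (54.4 CPM, 0.928 of the range) and was the lowest mouse for Grm2 (30.2 CPM, 0.838 of the range). WT replicate 3 was the highest mouse for Clstn2 (97.7 CPM, 0.878 of the range) and Onecut2 (7.02 CPM, 0.941 of the range) and was the lowest mouse for Sult1a1 (5.62 CPM, 0.873 of the range). WT replicate 4 was the highest mouse for Ddx60 (1.38 CPM, 0.902 of the range) and was the lowest mouse for Pdgfrb (24.9 CPM, 0.845 of the range). SCA7 replicate 2 was the highest mouse for Klf2 (15.4 CPM, 0.838 of the range), Klf4 (9.48 CPM, 0.822 of the range) and Oas1a (1.80 CPM, 0.729 of the range). Of these genes, the calls of Cckbr, B2m, Klf2, Sult1a1, Igtp and Oas1a are among those lost without the first replicate of WT or SCA7 mice, as given with their values above.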

How the results depend on the processing

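The count of 597 genes stayed within 1.5 times under another scaling (595 to 629), another filter on low counts (599 and 610), DESeq2 without shrinkage (615), limma-voom (607), edgeR robust (581), the 9 libraries alone (631), all 20 libraries (608) and genes of every type (740). It was 287 (69 higher, 218 lower) in DESeq2 with a normal prior on the fold change, 2309 (1024 higher, 1285 lower) with no fold limit and 279 (98 higher and the rest, about 1.8e+02, lower) with a limit of 1.5. Scaling by library totals alone gave 306 higher genes. Leaving out any single library of the fit gave 498 to 649 called genes, 170 to 210 higher and 328 to 446 lower, with Atxn7 at 0.0030 to 0.060. A slightly stricter fold limit gave 586 genes and leaving out both first replicates 512, both chosen after seeing the data. The week 9 comparison gave 8 genes, 53 in DESeq2 and 1 to 43 when 1 library was left out. Replicate numbers are shared by the groups, but same-numbered SCA7 and WT mice did not deviate together (correlations of 0.152, -0.089, 0.014 and 0.013), so they were not taken as pairs. With the replicate number as a block, 563 genes were called, and 37 in the week 9 comparison. Of 5640 pairs of a named gene and a setting, 5339 kept their direction and side of the threshold, 279 lost the call, 16 gained it and 6 changed sign. The latter are uncalled genes near 0: Pdgfra was at 0.00059 with totals alone, 0.037 without both first replicates and -0.072 to 0.0089 when 1 library was left out, and Tmem119 at -0.032 to 0.090 when 1 library was left out. The cause of these changes was not tested. With 5 and 4 mice, and a fold limit of 1.3, smaller differences are not resolved, and genotype and vector cannot be told apart.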
